A study of Saccharomyces cerevisiae with 12 samples.

Results

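The proteins of the cytosolic large ribosomal subunit of budding yeast were examined as 1 gene family. Members were taken by symbol, as every gene named RPL with a number and at most a copy letter, plus the stalk genes RPP0, RPP1A, RPP1B, RPP2A and RPP2B. The 80 genes analysed had a named probe and a value on all 12 arrays, among 5636 genes in all. The 80 genes belong to 46 protein families. They comprise 34 pairs of an A and a B copy, 11 single-copy genes and RPL18B, which entered neither class. They were read by 124 probes, 1 for 36 genes and 2 for 44.

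Each 2-colour oligonucleotide array set total RNA of a strain with a null allele of GCR1 against RNA of a second strain that the labels do not name, both grown in the same sugar. Cultures had 3% raffinose, 3% galactose or 2% glucose, with 4 arrays a sugar, numbered 1 to 4. Some arrays repeat a culture with the dyes exchanged, and the labels do not tell which. Fewer than 4 independent cultures therefore stand behind each sugar, so the p-values given here may come out too small. The measure is the deposited log2 ratio of the 2 channels. It gives no absolute level, so genes are compared here only by how far the ratio departs from 0, and in bulk RNA less transcript per cell and fewer cells with the transcript cannot be told apart.

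GCR1, the deleted gene, was read first. Its ratios were 2.04, 1.90, 1.36 and 1.38 on raffinose replicates 1 to 4, 1.82, 1.70, 1.45 and 1.34 in galactose, and 0.48, 0.49, 0.43 and 0.21 in glucose. All 12 values lay above 0. The genes GPM1 (phosphoglycerate mutase) and ENO2 (enolase), known targets of Gcr1, had mean ratios between -5.39 and -4.48 in the 3 sugars. Known targets thus place the strain labelled as the null mutant in the numerator, whereas the GCR1 probes go against this, and where those probes lie relative to the deleted stretch is not known here. The direction is not settled, so values are given as ratios above or below 0, and a negative ratio is only likely to mean less RNA in the labelled mutant.

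The relative sign of the raffinose arrays was checked next. Over all 10807 probes, named and unnamed, the first pair of raffinose arrays (replicates 1 and 2) ran against the second pair (3 and 4), with r between -0.507 and -0.34, and by this measure their relative sign is not settled. Over the 5636 named genes the same arrays correlated at r = 0.255 to 0.482, and over the 80 members at 0.567 to 0.675. GCR1 kept 1 sign on the 4 raffinose arrays, as did GPM1 (-4.67, -4.60, -6.13 and -6.17) and ENO2 (-4.44, -4.39, -5.73 and -5.63). A set of 114 unnamed probes of extreme ratio had a median of -8.58 on replicates 1 and 2 and of 7.99 on replicates 3 and 4, over all sugars. Values with raffinose replicates 3 and 4 turned are printed because of the correlation over all probes. Turning arrays that share a sign cancels their mean by construction, so the turned counts in raffinose say nothing about the members. The same holds for turned contrasts with raffinose and for turned differences between the copies of a pair.

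The large subunit carries the peptidyl transferase centre, where amino acids are joined, the tunnel through which the new chain leaves, and the stalk that recruits translation factors. In yeast its protein genes are transcribed together with those of the small subunit. Rap1 binds most of their promoters and brings in Fhl1 and its coactivator Ifh1, with Hmo1 at many of them. Rap1 also recruits Gcr1 and Gcr2, best known from the glycolytic genes. Most of the proteins are encoded by A and B copies left by the ancient duplication of the yeast genome. In most pairs, though not in all, the copies encode the same or nearly the same protein.

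With the signs as deposited, almost every member had a ratio below 0 in every sugar. limma called 72 of the 80 below 0 in raffinose, 79 in galactose and 79 in glucose, and 0 above 0 in each. Of all genes 14.3%, 25.2% and 31.8% were called below 0 in these sugars, and 22.4%, 34.8% and 26.8% above it. A fit on the averages of the array pairs (1 with 2, 3 with 4) called 6 members in raffinose against 77 and 79 in the other sugars. Of all genes it called 184, 1688 and 1564. The median member was at -1.07 in raffinose, -1.82 in galactose and -2.11 in glucose, or 2.09-, 3.54- and 4.32-fold below equality. Over all genes the medians were 0.05, 0.08 and -0.04. In raffinose 76 members lay below 0 on all 4 arrays, in galactose 79 and in glucose 80, against 17.7%, 27.6% and 38.9% of all genes. With raffinose replicates 3 and 4 turned, 79 members lay above 0 and 1, RPL7B, below it. The turned median was 0.49 (0.27 for all genes) and limma called 0 members, with 1 at an unadjusted p under 0.05.

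**Figure D1:**
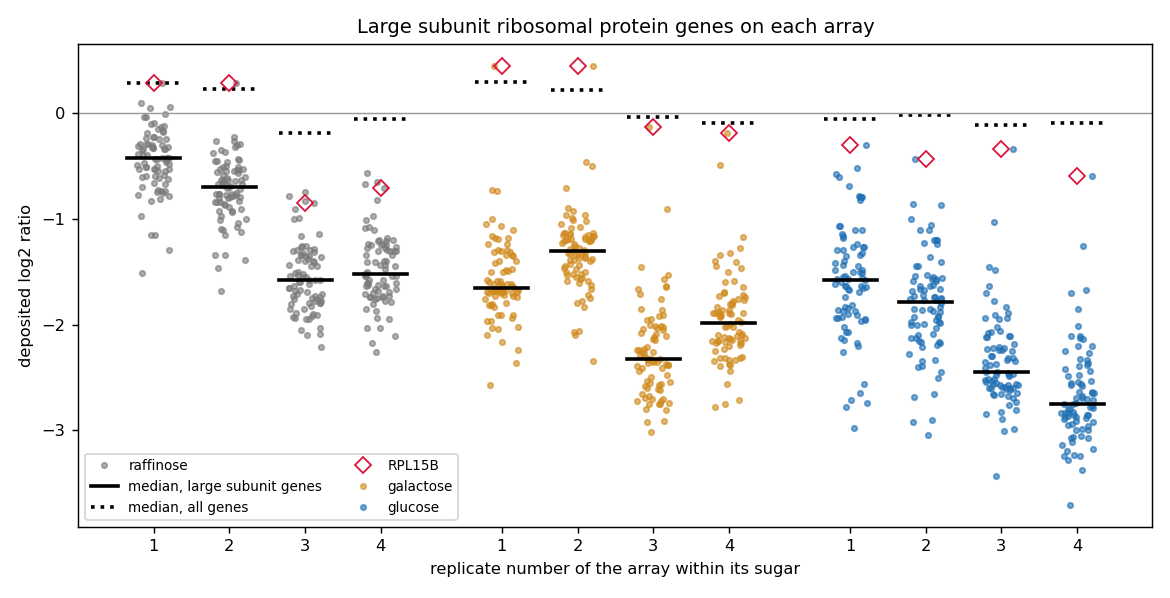
Deposited log2 ratio (vertical axis) of the 80 large subunit genes on each of the 12 arrays (horizontal axis, replicates 1 to 4 of each sugar). Points are genes, solid bars the median of the 80, dotted bars the median of all 5636 genes and open diamonds RPL15B; the solid bar lies below the dotted bar on every array, with a distance of -0.71 on raffinose replicate 1 and of -2.66 on glucose replicate 4.

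The members moved together from array to array. Their median was -0.42, -0.70, -1.58 and -1.52 on raffinose replicates 1 to 4, -1.65, -1.31, -2.32 and -1.99 in galactose, and -1.58, -1.78, -2.45 and -2.75 in glucose. Replicates 3 and 4 were thus lower than replicates 1 and 2 in each sugar, by a median of 0.97, 0.69 and 0.82 per member. Over all genes they were also lower, by 0.53, 0.48 and 0.15. What this split stands for is not labelled. Fits that bear on it used replicates 1 and 2 alone, 3 and 4 alone, the averages of these pairs, or a replicate block. Its part in the results was not tested further. On 1 and 2 alone and on 3 and 4 alone limma called 68 and 80 members below 0 in raffinose. The same fits called 79 and 79 in galactose and 80 and 80 in glucose. On 1 and 2 alone 1 member was called above 0 in raffinose and 1 in galactose. Shares of all genes called in these fits are not given here. A few members were higher on replicates 3 and 4, 1 in raffinose, 2 in galactose and 4 in glucose. RPL7B, read by 1 probe, was among them in raffinose and galactose. It was at -1.51, -1.39, -0.91 and -0.82 in raffinose and at -1.91, -1.58, -0.91 and -0.49 in galactose. In glucose RPL7B was lower on replicates 3 and 4, with a difference of -0.29.

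The median SD of a member over the 4 arrays of a sugar was 0.576, 0.453 and 0.488 (raffinose, galactose, glucose). After each array's median over the members was taken off, these SDs were 0.113, 0.134 and 0.197. The means of the 80 members spread with an SD of 0.286, 0.377 and 0.428, well under the 0.596, 0.893 and 0.980 of all genes. Across the 80 genes the means correlated at r = 0.652 between raffinose and galactose, 0.576 between raffinose and glucose and 0.615 between galactose and glucose. Across all genes r was 0.589, 0.59 and 0.439 in the same order. The sugars share no array, but they share the probes and the numbering of replicates, and the genes are not independent points.

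Not all members passed the test. In raffinose the 8 not called were RPL1A, RPL1B, RPL10, RPL13B, RPL15B, RPL19B, RPL21B and RPL27A. All of these but RPL15B (limma, adjusted p = 0.105) were called under the replicate block, which called 79 of the 80. With each array centred on its median over genes 79 were called too. Shares of all genes called in these fits are not given here. Counts in raffinose were 56 without its replicate 3 and 55 without its replicate 4, the lowest of any array left out, and 55 of the 72 were called whichever array was left out. Among genes described here, RPL5, RPL12B, RPL13A, RPL15A, RPL17A, RPL17B, RPL19A, RPL25, RPL37B, RPL39, RPL40B, RPL43A, RPL43B and RPP0 lost their raffinose call without replicate 3 or without replicate 4 (limma, adjusted p = 0.0514 to 0.202). RPP1B lost it without replicate 4 (adjusted p = 0.0512). RPL19A and RPL43B lost it without raffinose replicate 2 too (0.0756 and 0.0562), and also without any of the galactose or glucose arrays for RPL19A (0.0506 to 0.0628) and without 3 of them for RPL43B (galactose 1 and 4, glucose 3; 0.0512 to 0.0525). In galactose and in glucose RPL15B alone was not called, and all 79 calls of each sugar held whichever array was left out.

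The stalk is the flexible arm that binds translation factors, with Rpp0 as its base on the ribosome, Rpl12 beside it, and pairs of the acidic proteins P1 and P2 hung on Rpp0. Its 7 genes were all called in every sugar and lay close to one another in raffinose, between -1.22 and -1.06, and in galactose, between -2.10 and -1.75. In glucose they spread from -2.65 ± 0.67 (SD) for RPL12A to -1.23 ± 0.55 for RPP1A. RPP0 was at -0.39, -0.54, -1.78 and -1.61 in raffinose, -1.42, -1.67, -2.61 and -2.72 in galactose, and -1.35, -1.57, -2.57 and -2.70 in glucose. Its galactose and glucose arrays covered the same range, and both reached into the raffinose range. RPP1A, 1 of the P1 genes, was at -0.61, -0.76, -1.45 and -1.40 in raffinose, -1.94, -1.63, -2.33 and -1.93 in galactose, and -0.60, -0.998, -1.48 and -1.85 in glucose. All its galactose arrays lay below the raffinose ones, whereas its glucose arrays overlapped with the raffinose ones. RPP1B (-1.62 ± 0.91), RPP2A (-2.17 ± 0.74), RPP2B (-1.81 ± 0.75) and RPL12B (-2.38 ± 0.83) stood between the extremes in glucose.

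Rpl5 and Rpl11 carry the 5S rRNA into the subunit as 1 preassembled particle. RPL11A had the lowest mean of the 80 in raffinose and in galactose and the second lowest in glucose. It was at -1.30, -1.68, -2.21 and -2.26 in raffinose, -2.58, -2.35, -3.02 and -2.78 in galactose, and -2.74, -2.91, -2.83 and -3.25 in glucose. Each array of galactose and of glucose lay below every raffinose array. The means were -1.86 ± 0.46, -2.68 ± 0.285 and -2.93 ± 0.22 (limma, adjusted p = 4.66e-06, 9.61e-08 and 2.14e-08). RPL5, its single-copy partner in the particle, was at -0.94 ± 0.53, -1.56 ± 0.47 and -2.01 ± 0.64. With raffinose replicates 3 and 4 turned, RPL11A was at 0.37 and RPL5 at 0.45.

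Rpl2, Rpl3 and Rpl10 reach from the surface toward the catalytic centre. RPL10, the gene of a late-joining protein needed before subunits can engage in translation, stood above its neighbours. Its arrays gave -0.09, -0.32, -1.34 and -1.24 in raffinose, -0.72, -0.50, -1.65 and -1.40 in galactose, and -0.82, -1.23, -1.94 and -2.49 in glucose. The 3 sugars overlapped, and the mean of -0.75 ± 0.63 in raffinose did not pass the test (limma, adjusted p = 0.0569). Under the replicate block this raffinose mean was called below 0. RPL2A (-1.19, -2.08 and -2.45 in raffinose, galactose and glucose), RPL2B (-1.07, -1.97 and -2.33) and RPL3 (-1.17, -1.68 and -2.33) were called in every sugar.

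Of the 14 genes of the tunnel wall and its rim, 13 were called below 0 in raffinose and all in galactose and glucose, with medians of -0.95, -1.62 and -2.02. RPL26A, for an early-binding protein of the rim, was lowest in each sugar, at -1.55 ± 0.48, -2.53 ± 0.37 and -2.53 ± 0.27. RPL19A and RPL19B were the highest of the group in raffinose, at -0.40 ± 0.40 and -0.38 ± 0.35. RPL19A was at 0.09, -0.26, -0.78 and -0.67 on the 4 raffinose arrays, the first of them above 0. RPL31A, at the tunnel exit where chaperones dock, was at -0.34, -0.63, -1.35 and -1.28 in raffinose, -1.70, -1.27, -2.10 and -1.89 in galactose, and -2.56, -2.40, -2.51 and -2.37 in glucose. Its glucose values lay below every array of the other sugars and spread with an SD of only 0.09. RPL25, for the docking site of the signal recognition particle (-1.04, -1.89 and -2.01), and RPL39, for a very small protein of the tunnel wall (-0.99, -1.63 and -1.63), lay near the family medians in raffinose.

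The other tunnel genes followed the family. RPL4A and RPL4B, whose protein sends a loop into the tunnel, were at -1.26 and -1.19 in raffinose, -1.57 and -1.57 in galactose and -2.21 and -2.12 in glucose. RPL17A and RPL17B were at -0.75 and -0.69, -1.64 and -1.49, and -2.04 and -1.97. RPL35A and RPL35B were at -0.90 and -0.89, -1.60 and -1.55, and -1.85 and -1.72. RPL26B (-1.29, -2.24 and -2.31) and RPL31B (-1.22, -1.83 and -2.22) completed the rim.

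RPL40A and RPL40B encode Rpl40 fused to ubiquitin, which is cut off after synthesis. They were at -1.24 and -1.04 in raffinose, -2.08 and -1.99 in galactose and -2.23 and -2.18 in glucose. RPL41A and RPL41B, for the smallest protein of the subunit, had means close to each other in raffinose and galactose. RPL41A was at -0.46, -0.78, -1.82 and -1.85 in raffinose, -1.18, -1.05, -1.66 and -1.45 in galactose, and -1.54, -1.86, -1.94 and -2.38 in glucose. Raffinose and galactose overlapped, with means of -1.23 ± 0.71 and -1.34 ± 0.27.

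The 11 single-copy genes had medians of -0.99, -1.63 and -2.01 in raffinose, galactose and glucose. A copies had medians of -1.07, -1.87 and -2.22 and B copies of -1.11, -1.82 and -2.14. The medians of the 3 classes lay within 0.25 of one another in each sugar. Of the single-copy genes RPL29, for a nonessential basic protein, was lowest over the 12 arrays (-1.525 ± 0.67, -2.24 ± 0.45 and -1.94 ± 0.65). RPL30, whose protein holds back the splicing of its own transcript, was next (-1.40 ± 0.78, -2.05 ± 0.57 and -1.83 ± 0.985). RPL10 and RPL39 were the highest.

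**Figure D2:**
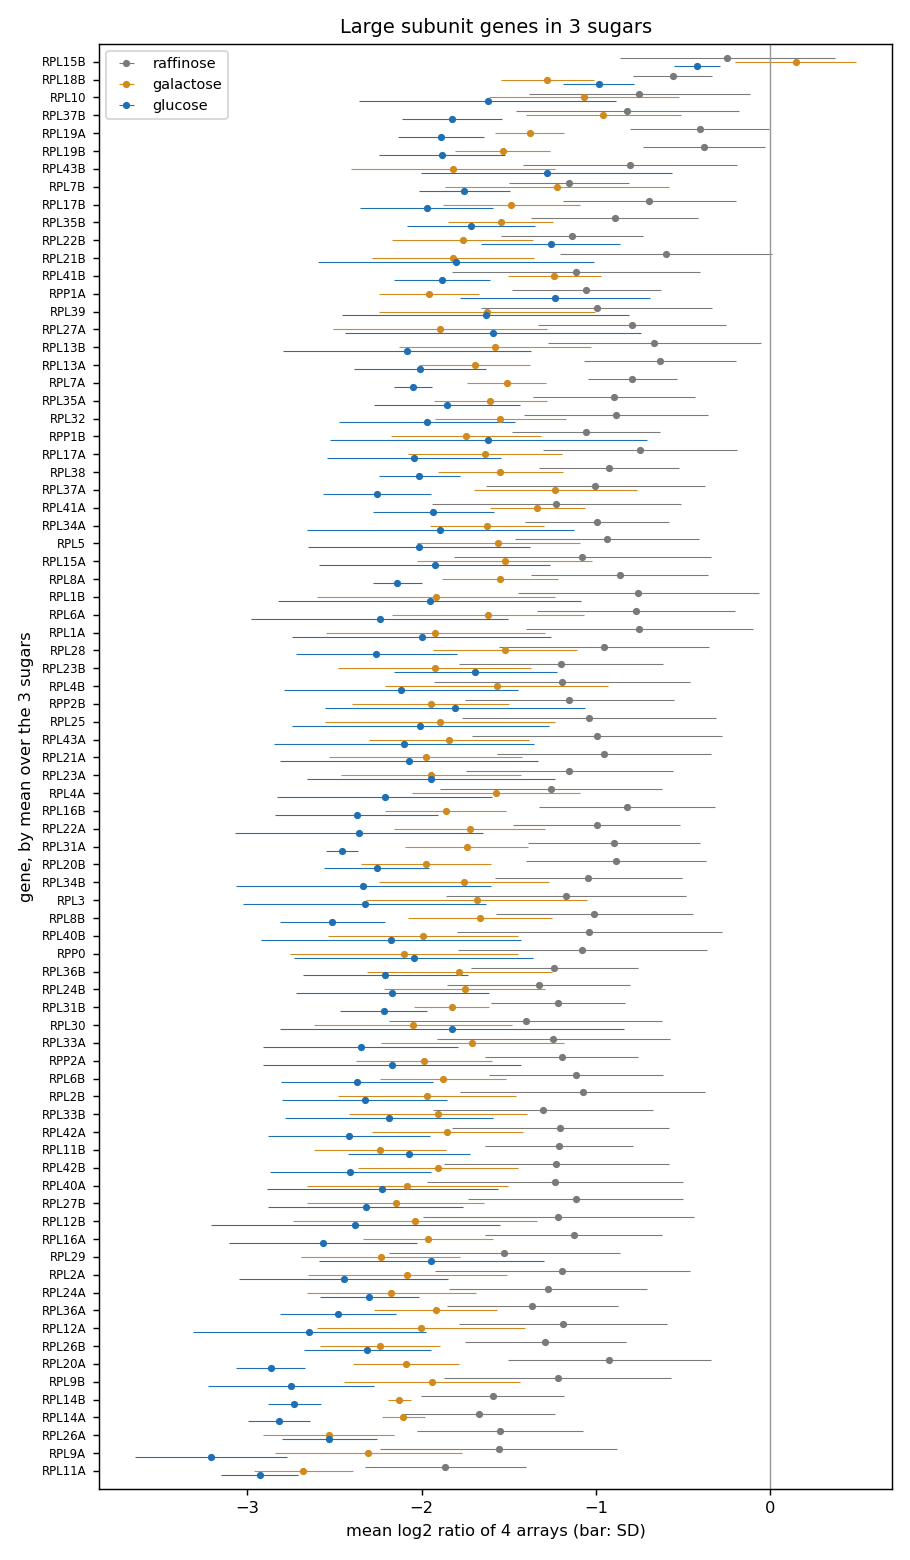
Mean log2 ratio over 4 arrays (horizontal axis; bars are SD over the 4 arrays) of each of the 80 genes (vertical axis, ordered by the mean over the 3 sugars) in raffinose, galactose and glucose. RPL15B stands at the top with a galactose mean of 0.15, and RPL11A at the bottom with -2.68 in galactose and -2.93 in glucose.

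RPL15B stood apart from the whole family. Its ratios were 0.29, 0.28, -0.85 and -0.71 in raffinose, 0.45, 0.45, -0.13 and -0.18 in galactose, and -0.30, -0.43, -0.34 and -0.60 in glucose. Raffinose and galactose arrays fell on both sides of 0, and glucose arrays all below it. The means of -0.25 ± 0.62, 0.15 ± 0.35 and -0.42 ± 0.13 did not pass the test (limma, adjusted p = 0.353, 0.536 and 0.0819). On replicates 1 and 2 alone the raffinose mean was 0.29 and called above 0 (adjusted p = 0.0117), and with the replicate number as a block the glucose mean was called below 0 (adjusted p = 0.00877). RPL15A, which encodes the same core protein, was at -0.31, -0.59, -1.78 and -1.64 in raffinose, -1.23, -1.01, -2.12 and -1.73 in galactose, and -1.27, -1.55, -2.12 and -2.77 in glucose. It was called in each sugar and lay below RPL15B on all 12 arrays. A minus B came to -0.83 ± 0.16 (raffinose), -1.67 ± 0.235 (galactose) and -1.51 ± 0.57 (glucose), or 1.78-, 3.18- and 2.84-fold.

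Most pairs differed much less than RPL15. The size of A minus B had a median of 0.115, 0.116 and 0.248 in the order raffinose, galactose, glucose, and 24, 24 and 15 of the 34 pairs differed by under 0.2. The 2 probes of a member differed by a median of 0.020, 0.014 and 0.090. Whether those probes are different oligonucleotides is not given in the sources used here, so this yardstick may cover spot error alone. The A copy was the lower one in 19 pairs in raffinose, 23 in galactose and 28 in glucose. Over the pairs, A and B means correlated at r = 0.633, 0.663 and 0.494, as a description across 34 pairs. Pairs are described by their mean, SD and sign on each array, with no test. With 4 arrays the smallest two-sided exact permutation p for a pair would be 0.125. Whether probes for near-identical copies also catch the other copy was not tested, and such cross-hybridisation would draw the ratios of a pair together. With raffinose replicates 3 and 4 turned, which cancels differences that share a sign, the A copy was lower in 13 pairs and the median size was 0.034.

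**Figure D3:**
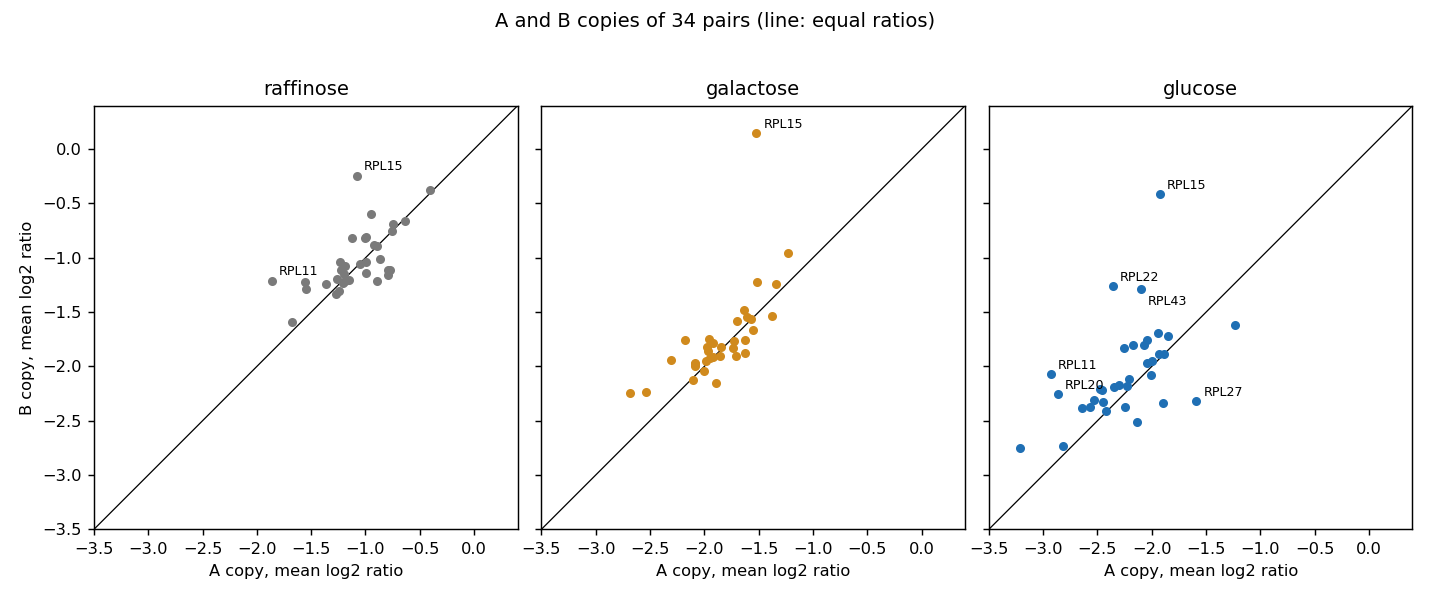
Mean log2 ratio of the A copy (horizontal axis) against that of the B copy (vertical axis) for 34 pairs in raffinose, galactose and glucose, with the line of equal ratios. Pairs that differ by over 0.5 are named: 2 in raffinose, 1 in galactose and 6 in glucose, where 28 pairs lie above the line.

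On all 12 arrays the A copy was lower in 7 pairs and the B copy in 2. The 7 were RPL9, RPL11, RPL15, RPL16, RPL21, RPL26 and RPL37, and the 2 were RPL8 and RPL27. RPL11A lay below RPL11B by 0.60, 0.64, 0.60 and 0.76 in raffinose, 0.33, 0.58, 0.32 and 0.53 in galactose and 1.07, 0.98, 0.61 and 0.77 in glucose. RPL9A, for a protein near the factor-binding site, lay below RPL9B by 0.34 ± 0.06, 0.37 ± 0.04 and 0.46 ± 0.04. In the RPL27 pair the A copy was the higher one, by 0.32 ± 0.09 in raffinose, 0.25 ± 0.11 in galactose and 0.73 ± 0.30 in glucose. RPL13, RPL1 and RPL42 differed least over the 12 arrays. RPL42A and RPL42B were at -1.20 and -1.23 in raffinose, -1.85 and -1.91 in galactose and -2.42 and -2.41 in glucose.

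Some copies stood further apart in glucose than in the other sugars. RPL22A, for a nonessential protein of the subunit surface, was at -0.42, -0.79, -1.43 and -1.34 in raffinose, -1.69, -1.19, -2.24 and -1.78 in galactose, and -1.63, -1.93, -2.68 and -3.20 in glucose. RPL22B was at -0.74, -0.86, -1.60 and -1.35, then -1.66, -1.34, -2.32 and -1.74, and then -0.78, -1.10, -1.45 and -1.70. The copies ran close together in raffinose and galactose, while in glucose RPL22B lay above RPL22A on each array. Their difference was 0.14 ± 0.14, 0.04 ± 0.09 and -1.10 ± 0.32. RPL43A and RPL43B, for a zinc-binding protein, differed by -0.19 ± 0.12, -0.03 ± 0.29 and -0.82 ± 0.11. For the RPL20 pair, A minus B was -0.04 ± 0.08, -0.11 ± 0.16 and -0.61 ± 0.42, and in glucose the 4 arrays gave -1.01, -0.92, -0.34 and -0.16. RPP1A and RPP1B ran the other way, with the A copy at -0.21 ± 0.17 relative to B in galactose and at 0.385 ± 0.365 in glucose. These shifts between sugars carry no test.

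**Figure D4:**
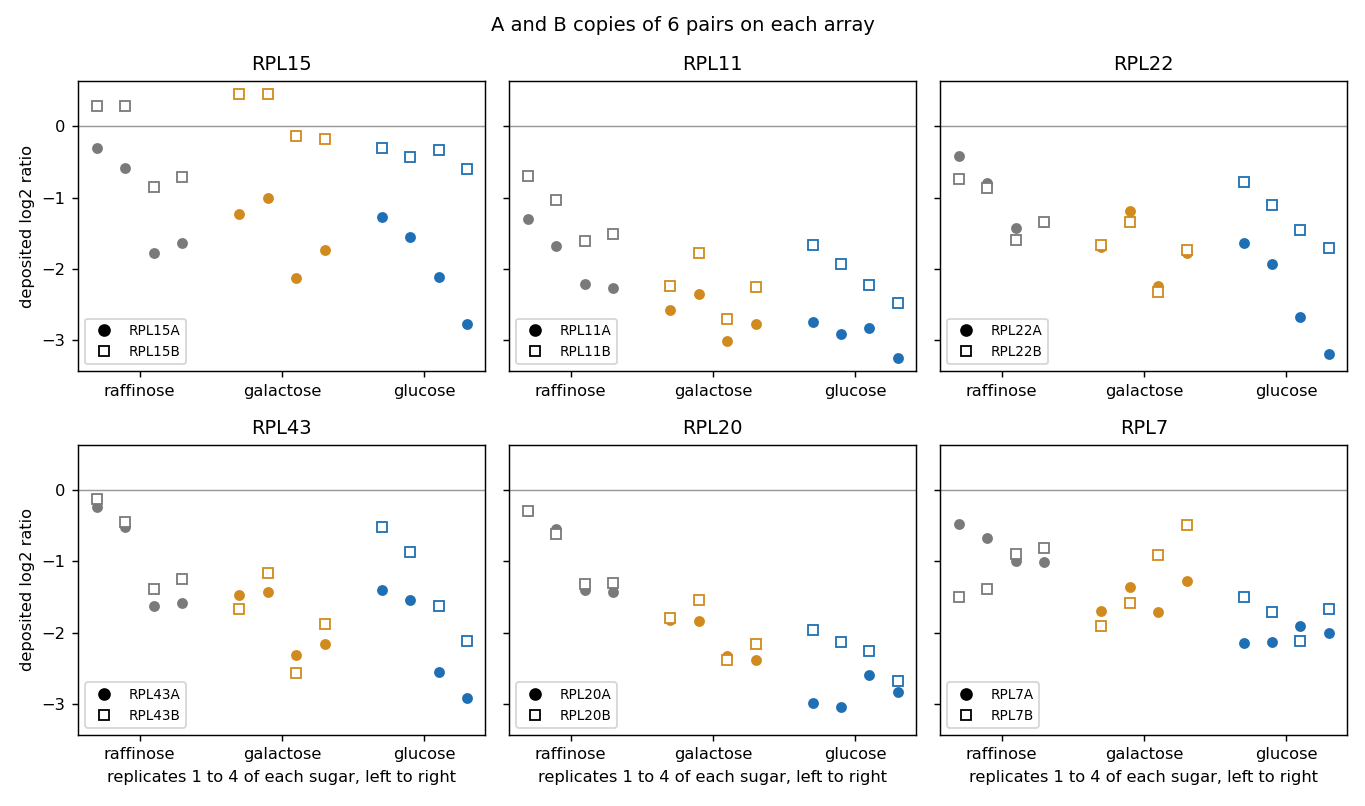
Deposited log2 ratio (vertical axis) of the A copy (filled circles) and B copy (open squares) of 6 pairs on each array, with the 4 replicates of each sugar from left to right. RPL15B lies above RPL15A on all 12 arrays and RPL22B above RPL22A on the 4 glucose arrays, while the order within the RPL7 pair changes between replicates 1 and 2 and replicates 3 and 4 in raffinose and galactose.

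The RPL7 pair, related to the assembly factor Rlp7, changed its order with the array. A minus B was 1.03, 0.72, -0.09 and -0.19 in raffinose, 0.20, 0.22, -0.80 and -0.79 in galactose, and -0.64, -0.41, 0.21 and -0.33 in glucose. The mean differences of 0.37 ± 0.60, -0.29 ± 0.59 and -0.29 ± 0.36 were within the spread of the arrays.

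The ratio itself was also compared between sugars. By the mean, 65 of the 80 genes were ordered with raffinose highest, galactose between and glucose lowest. Another 14 were lowest in galactose, among them the single-copy genes RPL29, RPL30 and RPP0 and the stalk genes RPP1A, RPP1B and RPP2B. RPL15B was the only member not highest in raffinose. The members moved together on each array, so these counts of genes are not separate pieces of evidence. The share of all genes with the same order is not given here. On the averages of the array pairs limma called 0 members in each contrast between sugars. For a typical member neighbouring sugars did not separate. All 4 galactose arrays lay below all 4 raffinose arrays for 15 members (12.2% of all genes), all glucose arrays below raffinose for 41 (22.8%) and all glucose arrays below galactose for 11 (28.2%). The last share is below that of all genes.

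In galactose the median member was 0.73 lower than in raffinose, and limma called 21 of the 80 as lower and 0 as higher, against 13.3% of all genes called as lower and 17.2% as higher. RPL21B (-1.22 ± 0.40, SE; adjusted p = 0.0347) and RPL20A (-1.17 ± 0.26; adjusted p = 0.00548) differed most among those called. RPL20A was at -0.30, -0.55, -1.40 and -1.44 in raffinose and at -1.82, -1.83, -2.32 and -2.38 in galactose, with no overlap. RPL19A, RPL19B, RPL13A, RPL26A, RPL11B, RPL18B, RPL20A, RPL20B and RPL7A were called whichever array was left out. RPL21B lost its call without raffinose replicate 1 or 2 or galactose replicate 1, 3 or 4 (adjusted p = 0.0554 to 0.102). RPP1A, at -0.90 ± 0.28, lost it without the same arrays (0.0532 to 0.0885). RPL11A lost it without raffinose replicate 1 or 2 or galactose replicate 3 (0.0508 to 0.0599). The count of 21 was 10 and 11 without raffinose replicates 1 and 2, 9 and 13 without galactose replicates 3 and 4, and 34 without raffinose replicate 3. On the averages of the array pairs limma called 0 members (7 at an unadjusted p under 0.05) and 84 of all genes. The replicate block gave 73, and arrays centred on their median over genes gave 49, with the shares of all genes not given here. Turned raffinose replicates 3 and 4 gave 78 (median -2.30), a count that follows from the cancelled raffinose mean.

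Between glucose and raffinose the differences were larger. The median member was 1.10 lower in glucose, and 51 were called as lower and 0 as higher, against 22.6% of all genes called as lower and 15.0% as higher. RPL20A, a surface protein gene, reached -2.98, -3.05, -2.60 and -2.84 in glucose, below each of its raffinose and galactose arrays (glucose minus raffinose -1.94 ± 0.26, adjusted p = 0.000155). RPL9A was at -0.835, -1.13, -2.09 and -2.18 in raffinose, -2.02, -1.72, -2.92 and -2.56 in galactose, and -2.78, -2.92, -3.43 and -3.71 in glucose. It had the lowest glucose mean of the family, -3.21 ± 0.44, the sixth lowest of all genes, and differed from raffinose by -1.65 ± 0.35 (adjusted p = 0.0031). RPL31A differed by -1.56 ± 0.24 (adjusted p = 0.00037). At the other end RPL22B (-0.12 ± 0.27), RPL15B (-0.17 ± 0.27) and RPP1A (-0.18 ± 0.28) did not pass the test. Of the 51 calls, 35 held whichever array was left out. On the averages of the array pairs limma called 0 members (37 at an unadjusted p under 0.05) and 132 of all genes. The count was 76 under the replicate block, with the share of all genes not given here. With raffinose replicates 3 and 4 turned it was 80 (median -2.60), which again follows from the cancelled raffinose mean.

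Glucose and galactose differed least. The median member was 0.41 lower in glucose, and limma called 8 of the 80 as lower and 0 as higher, against 27.8% and 19.3% of all genes. These were RPL7A, RPL8B, RPL14A, RPL14B, RPL20A, RPL31A, RPL37A and RPL37B. RPL37A, for a zinc-binding protein beside the 5.8S rRNA, was at -1.0, -0.71, -1.76 and -1.46 in galactose and at -1.91, -2.17, -2.30 and -2.65 in glucose, with no overlap. In raffinose it was at -0.34, -0.60, -1.55 and -1.52, a range that overlaps that in galactose. Its difference was -1.02 ± 0.31 (adjusted p = 0.0166), lost without galactose replicate 2 (0.0529) or glucose replicate 4 (0.0509). RPL37B differed by -0.87 ± 0.31 (adjusted p = 0.0349), lost without galactose replicate 1 or 2 or glucose replicate 2, 3 or 4 (0.0583 to 0.102). RPL14A (-0.71 ± 0.20, adjusted p = 0.011) was the 1 gene called whichever array was left out. RPL14B lost its call without glucose replicate 4 (0.0595), RPL20A without galactose replicate 1 or 2 or glucose replicate 1, 2 or 4 (0.0508 to 0.074), and RPL31A without galactose replicate 1 or 2 or glucose replicate 1 or 3 (0.0534 to 0.0819). The count of 8 was 5 without galactose replicate 1, 2 without galactose replicate 2, 5 without glucose replicate 3, 3 without glucose replicate 4 and 12 without galactose replicate 3. On the averages of the array pairs limma called 0 members, and 0 had an unadjusted p under 0.05. Of all genes 796 were called in that fit.

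Under the replicate block, glucose minus galactose had 44 members called as lower and 3 as higher, RPL22B, RPL43B and RPP1A. The share of all genes called under the block is not given here, so these counts cannot be read as particular to the members. Without the block the differences of RPL22B, RPL43B and RPP1A were 0.50 ± 0.27, 0.54 ± 0.40 and 0.72 ± 0.28. None of the 3 passed the test (limma, adjusted p = 0.141, 0.3 and 0.052). With raffinose replicates 3 and 4 turned, 1 member was called in this contrast, since all arrays share 1 estimate of the spread.

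The small subunit genes gave much the same picture. Of 55 measured, 50, 55 and 55 were called below 0 (raffinose, galactose, glucose), with medians of -0.95, -1.83 and -2.10. Genes for carriers and assembly partners of large subunit proteins had other counts. Of 18 listed, 1 was called below and 3 above 0 in raffinose, 8 below and 3 above in galactose, and all 18 below in glucose. Of all genes 14.3% and 22.4%, 25.2% and 34.8%, and 31.8% and 26.8% were called below and above 0, so that the raffinose counts of this list were near or under those shares. Their medians were 0.13, -0.17 and -1.25. In glucose minus raffinose 16 of the 18 were called as lower (22.6% of all genes), and in glucose minus galactose 12 (27.8%). SYO1, the importer of Rpl5 and Rpl11, was at 0.48 ± 0.21, 0.26 ± 0.29 and -1.23 ± 0.09, while RPL11A was below 0 throughout. ACL4, the carrier of Rpl4, was at 0.46 ± 0.30, 0.48 ± 0.345 and -0.82 ± 0.17. RPF2, which helps to place the 5S particle, was at 0.53 ± 0.40, 0.37 ± 0.36 and -1.61 ± 0.25. BCP1, the carrier of Rpl23, was the 1 gene of the list called below 0 in all 3 sugars (-0.40 ± 0.35, -1.69 ± 0.33 and -1.66 ± 0.10), with RPL23A at -1.15, -1.95 and -1.95.

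**Figure D5:**
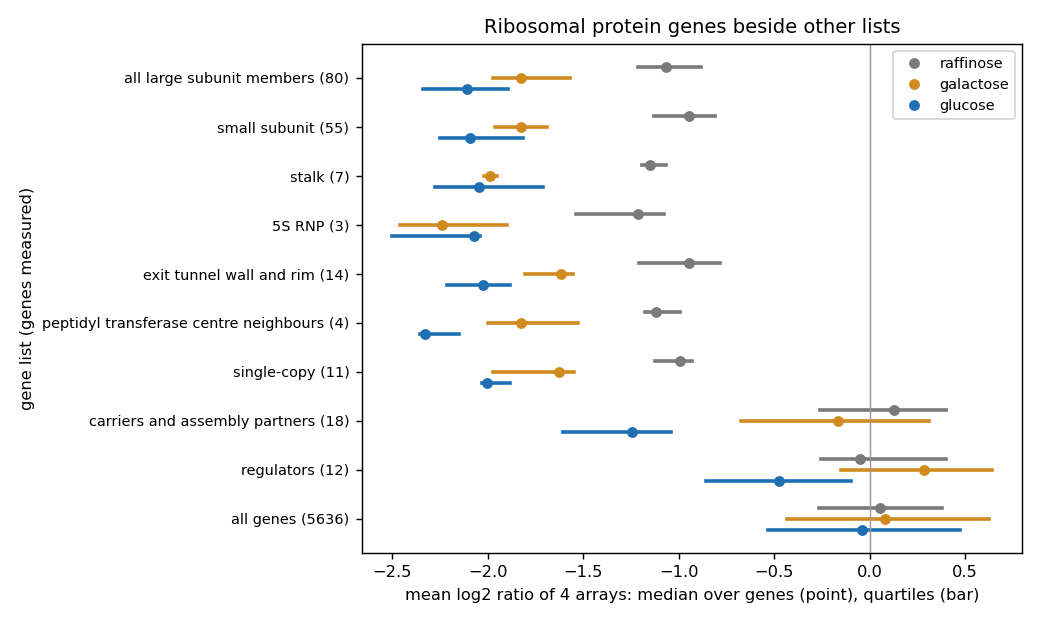
Median (point) and quartiles (bar) over genes of the mean log2 ratio of 4 arrays (horizontal axis) for lists of genes (vertical axis, number measured in brackets) in raffinose, galactose and glucose. Each large subunit list and the small subunit lie below 0 in every sugar, while carriers and assembly partners have medians of 0.13, -0.17 and -1.25 and all genes of 0.05, 0.08 and -0.04.

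Of 12 genes for regulators of ribosomal protein genes, 1 was called below and 3 above 0 in raffinose, 2 and 6 in galactose, and 6 and 2 in glucose. The raffinose counts were close to the 14.3% and 22.4% of all genes. In galactose 25.2% and 34.8% of all genes were called below and above 0, and in glucose 31.8% and 26.8%. The counts below 0 in galactose and above 0 in glucose were under those shares. GCR1, the deleted gene, is in this list and was called above 0 in each sugar (limma, adjusted p = 1.94e-06, 7.89e-07 and 0.0194). HMO1 was below 0 in each sugar (-0.68 ± 0.32, -1.31 ± 0.31 and -1.12 ± 0.37). RAP1 was at -0.37 ± 0.30, -0.83 ± 0.35 and -1.20 ± 0.15, called in galactose and glucose. IFH1 was at 0.37 ± 0.43, 0.45 ± 0.46 and -0.74 ± 0.02, called above 0 in galactose and below 0 in glucose. CRF1, for a corepressor that competes with Ifh1 for Fhl1, was above 0 in each sugar (1.78 ± 0.59, 0.99 ± 0.53 and 1.27 ± 0.70). With raffinose replicates 3 and 4 turned, limma called 0 of all genes in raffinose, these lists included, with 1463 genes at an unadjusted p under 0.05.

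Members were also compared along the chromosome. In the gene table RPL13A neighbours RPP1A and RPL24A neighbours RPL30. RPL13A and RPP1A were at -0.63 and -1.06 in raffinose, -1.70 and -1.96 in galactose and -2.01 and -1.23 in glucose, so that their order turned in glucose. RPL24A, for a protein that bridges the 2 subunits, and RPL30 were at -1.27 and -1.40, -2.17 and -2.05, and -2.30 and -1.83.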

How the data were processed

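The authors deposited 1 log2 ratio per probe and array. Per the labels, total RNA was amplified with an Agilent low-input kit, with Cy5 as the dye of channel 1 and Cy3 as that of channel 2. How the ratios were normalized, centred or turned for dye swaps, and their log base, is not given in the sources used here. Base 2 was taken from the size of the values, and each fold rests on it. Signal over background was not analysed here. Of 10807 probes 9271 have 1 gene, 0 have several and 1536 have no name here. The gene table (assembly R64) held all 9271 identifiers and served for names and neighbours only. Probes of a gene were averaged.

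The median over genes ran from -0.188 to 0.296 on the 12 arrays, and nothing was centred further. limma 3.58.1 in R 4.3.3 (lmFit, eBayes) was fitted to 5636 genes on 12 arrays with 1 mean per sugar. Means were tested against 0 and against each other, with p-values adjusted by Benjamini-Hochberg over all genes and a threshold of 0.05. Values after ± are SDs over 4 arrays, or SEs for differences between sugars. Alternatives were other array scaling, probe choice, averaging of arrays, subsets of arrays, a replicate block and turned raffinose signs. No promoter or protein sequences were used.

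Members, lists and tests were chosen with earlier results of these data known. Named are GCR1; the 4 lowest and 4 highest members of each sugar; the 3 at each end of each contrast; members not called (the 6 nearest 0 where more); the 5 pairs that differ most and the 3 that differ least; the 2 lowest and 2 highest single-copy genes; members whose probes differ by over 0.5 (0 genes); and the role groups. GPM1, ENO2, RPL7A, RPL8B, RPL20B, RPL22A, RPL23A, RPL24A, pairs of constant order and single carriers and regulators were added after their values were seen.

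Pairing by the replicate numbers of the titles was checked on each array's deviation from the mean of its sugar. Between arrays of the same number these deviations had r = 0.522 to 0.893, over the criterion of 0.1. The numbers were taken to pair the arrays in the replicate block only, and the fit with 1 mean per sugar held no pairing. Once the means of replicates 1 and 2 and of 3 and 4 were removed, r was -0.321 to 0.153. Only 1 of the 12 arrays correlated best with its own number in both other sugars. Pairing by single number was therefore not shown beyond the split of 1 and 2 from 3 and 4, and counts under the replicate block rest on it. Values with the replicate block stand beside a result if they end or add its call or shift a count more than 1.5 times.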

Additional observations from a re-analysis of the deposited data

Results flagged for a closer look

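RPL14B in glucose had 1 array far from the other 3. Its ratios were -2.65, -2.65, -2.66 and -2.96 on replicates 1 to 4, and the gap to replicate 4 was 0.958 of the whole range. Chance alone marks about 1 in 20 groups of this size.

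The ratio differed between sugars by the test of the difference itself (limma contrast) for 21 members in galactose minus raffinose, 51 in glucose minus raffinose and 8 in glucose minus galactose. Of the 3 genes at each end of a contrast, those called were RPL20A (-1.17) and RPL21B (-1.22) in the first, RPL20A (-1.94), RPL31A (-1.56) and RPL9A (-1.65) in the second, and RPL37A (-1.02) and RPL37B (-0.87) in the third. A fit on the averages of the array pairs called 0 members in each of these contrasts.

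Among probes with no gene name, 114 had a log2 ratio whose size exceeded 5 on 6 or more arrays. All changed sign between replicates 1 and 2, with a median of -8.58, and replicates 3 and 4, with a median of 7.99. These spots belong to none of the 80 genes.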

How the results depend on the processing

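Turned signs cancel the raffinose mean by construction, and the counts in contrasts with raffinose follow from that. With replicates 3 and 4 turned, 0 members were called in raffinose (72 as deposited), the median was 0.485, and 78, 80 and 1 were called as lower in galactose minus raffinose, glucose minus raffinose and glucose minus galactose (21, 51 and 8 as deposited). Among the named members called as deposited, RPL7B stayed below 0 (-0.293) and 48 changed sign. Their turned raffinose log2 ratios were, from the lowest, RPL18B 0.179, RPL31B 0.308, RPL19A 0.319, RPL22B 0.336, RPL11B 0.346, RPL14B 0.35, RPL13A 0.354, RPP2A 0.359, RPL14A 0.361, RPP1B 0.363, RPP1A 0.367, RPL11A 0.374, RPL26B 0.378, RPL35A 0.383, RPL26A 0.392, RPL35B 0.4, RPL31A 0.414, RPL17B 0.427, RPL5 0.449, RPL17A 0.475, RPP2B 0.49, RPL20A 0.498, RPL12A 0.502, RPL43B 0.516, and further RPL27B 0.524, RPL42A 0.526, RPL37A 0.535, RPL37B 0.54, RPL42B 0.541, RPL4A 0.545, RPL9B 0.551, RPL29 0.56, RPL39 0.566, RPL9A 0.577, RPL3 0.588, RPL2B 0.596, RPL41B 0.601, RPL41A 0.608, RPL43A 0.612, RPL25 0.613, RPP0 0.615, RPL40A 0.625, RPL2A 0.625, RPL15A 0.629, RPL4B 0.631, RPL40B 0.65, RPL12B 0.664 and RPL30 0.665. On replicates 1 and 2 alone RPL15B was at 0.286 in raffinose.

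Counts in galactose and glucose stayed between 77 and 80 under every setting run. Averaging replicates 1 with 2 and 3 with 4 left 6 called in raffinose and 0, 0 and 0 in the 3 contrasts, on 6 averaged values in place of 12. Of all genes that setting called 184 in raffinose and 84, 132 and 796 in the contrasts. Averaging 1 with 3 and 2 with 4 gave 73 in galactose minus raffinose and 45 in glucose minus galactose, and 1 with 4 and 2 with 3 gave 75, 79 (glucose minus raffinose) and 57. The replicate block gave 73 and 44, replicates 1 and 2 alone 75 and 35, and replicates 3 and 4 alone 64 and 46. All these counts are of members called as lower. In glucose minus galactose 3 were called as higher with 1 and 3 averaged, and 8 with 1 and 4 averaged. A further 3 were higher under the block, 7 on replicates 1 and 2 alone and 2 on 3 and 4 alone. In galactose minus raffinose at most 1 was higher. Shares over all genes under these settings are not given here. Centred arrays gave 49 in galactose minus raffinose, and 10 as lower and 3 as higher in glucose minus galactose. The cause was not tested. Among 57 named members and 6 comparisons the replicate block kept the side of the threshold 255 times and added 87 calls. It ended none.

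With single arrays left out, counts were 55 to 77 in raffinose, 79 to 79 in galactose and in glucose, 9 to 34 in galactose minus raffinose, 35 to 63 in glucose minus raffinose and 2 to 12 in glucose minus galactose. Medians were -1.28 to -0.873, -1.981 to -1.628, -2.34 to -1.924, -0.904 to -0.545, -1.257 to -0.876 and -0.58 to -0.229 in the same order. Restriction to genes complete on 12 arrays changed no count. Brightness over background was not analysed here, so which ratios rest on dim spots is unknown.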
